A study of Homo sapiens with 9 samples.

Results

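The comparison described here sets 3 libraries of OPM-1 cells carrying the guides labelled gFBXW7 + gKMT2D against 3 libraries of OPM-1 cells carrying gFBXW7 alone, and so asks which messenger RNAs differ when the KMT2D guide is added to the FBXW7 guide. It takes in 6 of the 9 libraries of the series and all 38478 named gene rows, of which 13262 held enough reads to be tested. OPM-1 is an established human line of myeloma, a cancer of plasma cells. The genotype label of each library is WT, the cells stably express the guides, and the replicates are described as biologically independent. The third group, gLuc, carries a guide against luciferase and serves as the control for both. It entered the fit, which shares 1 estimate of the spread among all 9 libraries, and its values are given beside the results without a test. The labels give neither the way the guides act, nor the number of guides per gene, nor whether the cells were a pool or single clones.

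KMT2D, also called MLL4, is a histone methyltransferase that places a single methyl group on lysine 4 of histone H3, mainly at enhancers, within a large complex that also holds the demethylase KDM6A. Loss of KMT2D is frequent in lymphomas of germinal centre B cells, where target genes with roles in B cell signalling lose enhancer marks. FBXW7 is the substrate-binding subunit of an SCF ubiquitin ligase that directs MYC, cyclin E, Notch, p100 NF-kB and MCL1 to the proteasome, and in myeloma it has been linked to NF-kB signalling.

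Total counts ran from 16337492 to 27076242 per library. All 8 plasma cell markers examined (SDC1, TNFRSF17, PRDM1, IRF4, XBP1, MZB1, SLAMF7 and CD38) were present in every library, at 45.3 to 1129 CPM (counts scaled to library size and by TMM). FGFR3 (a mean of 1523 CPM in gFBXW7) and WHSC1 (1086 CPM), the pair of genes raised in myelomas with the translocation t(4;14), were abundant. Of 27 markers of T cells, monocytes, stroma, epithelium and red cells, 17 to 20 had no read in a given library, and the 27 together reached 35.2 to 44.9 CPM in gFBXW7 and 24.9 to 44.8 CPM in gFBXW7 + gKMT2D. Library 3 of gFBXW7 + gKMT2D stood apart from the others: ribosomal protein genes took 11.4% of its counts (5.09% to 8.7% in the other 8) and the shortest 10% of genes 18.8% (10.5% to 15%), so values without it are given where it stands out.

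Neither targeted transcript passed the test. FBXW7 had 53.4, 55.5 and 54.8 CPM in gFBXW7, 46.0, 45.2 and 71.7 CPM in gFBXW7 + gKMT2D and 53.8, 47.9 and 48.7 CPM in gLuc, and the groups overlapped (log2 fold change -0.01, SE 0.18). KMT2D had 48.8, 65.1 and 59.1 CPM in gFBXW7 and 48.0, 107.0 and 28.6 CPM with the KMT2D guide, a log2 fold change of 0.09 (SE 0.45) that ran from -0.59 to 0.44 as single libraries were left out. In gLuc, without either guide, KMT2D had 41.0, 58.3 and 104.3 CPM. The KMT2D value moved across libraries with the share of counts in the longest 10% of genes (6.68%, 9.07% and 5.98% in the 3 libraries with the guide). Its part in the KMT2D value was not tested. With 1 surrogate variable in the model, which is a variable estimated from the counts for variation that the groups do not explain, the value for KMT2D was -0.07 (SE 0.12, adjusted p = 0.81). Reads summed along a gene cannot reveal a short insertion or deletion, so these values do not check the guides.

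In all, 8 genes passed the test at an adjusted p under 0.05, which is 0.0603% of those tested. Of these, 4 were higher (0.0302%) and 4 lower (0.0302%) with the KMT2D guide. One of them, LINC01420, passed the filter on low counts only through the group where it is high, so its call gives no support. At an unadjusted p under 0.05 the count was 560 (4.22%), with 305 higher (2.3%) and 255 lower (1.92%). The 3 libraries of one group lay wholly above the 3 of the other for 577 genes higher with the KMT2D guide (4.35%) and 690 lower (5.2%), 9.55% in all. Of the fold changes, 54.6% were above 0 and 45.4% below. Across all tested genes the median log2 fold change was 0.02. The count of 8 rests on few libraries. Without library 3 of gFBXW7 + gKMT2D it was 7, of which 5 were among the 8. It was 0 when any 1 gFBXW7 library was left out and when the 6 compared libraries were fitted alone. It rose to 125 with 1 surrogate variable (0.943%), of which 37 were higher (0.279%) and 88 lower (0.664%), and to 31 with DESeq2 (0.202%), of which 12 were higher (0.0782%) and 19 lower (0.124%). All 8 genes kept their sign in every alternative in which they were tested. All 8, LINC01420 included, were called in each of the 9 models that held the surrogate variable and lacked 1 library. These models were added after seeing the data and reuse the libraries that gave the 8 genes, so they are no separate support.

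**Figure D1:**
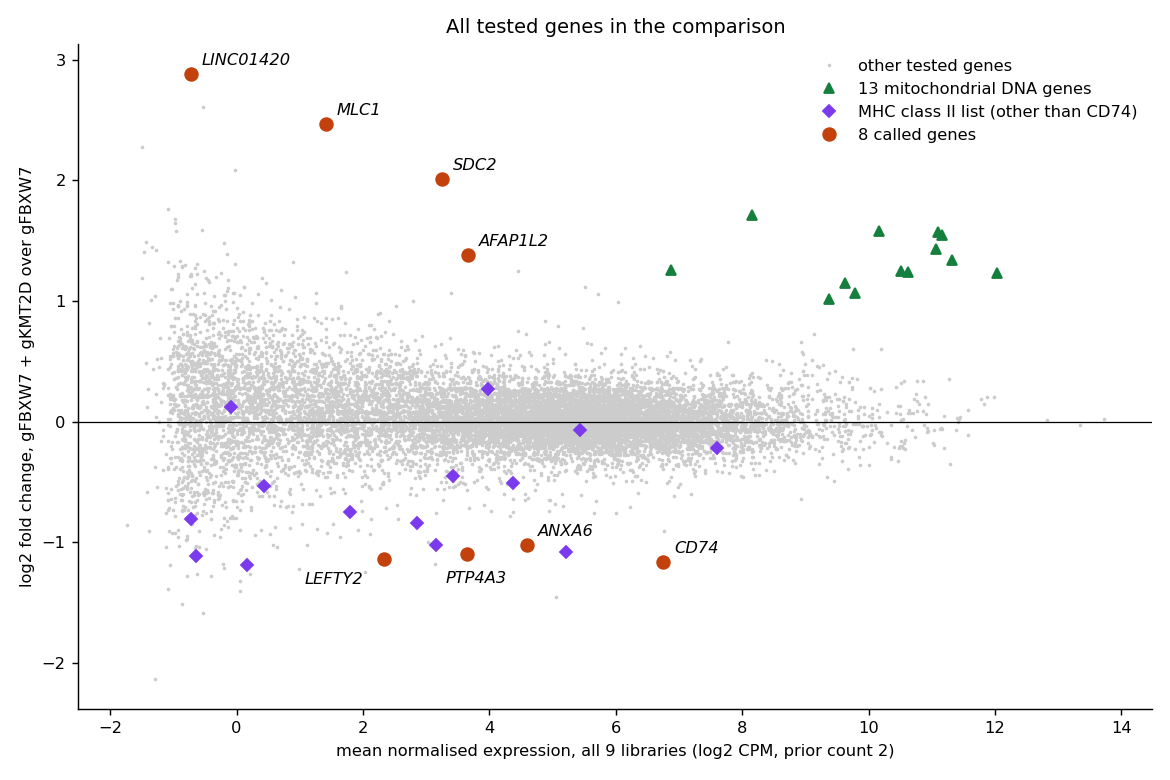
Log2 fold change of gFBXW7 + gKMT2D over gFBXW7 (vertical axis) against mean normalised expression in log2 CPM (horizontal axis) for the 13262 tested genes as grey points, with the 8 called genes as circles, the 13 protein-coding genes of mitochondrial DNA as triangles and the other 14 tested members of the MHC class II list as diamonds. The called genes lie at the edges of the cloud, the mitochondrial genes sit together above it at high expression, and 12 of the 14 diamonds are below 0.

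The 4 higher genes were MLC1, SDC2, AFAP1L2 and LINC01420. MLC1, a membrane protein known from astrocytes, where it takes part in chloride and volume regulation, had 1.3, 1.67 and 1.73 CPM in gFBXW7 and 8.48, 10.2 and 7.25 CPM with the KMT2D guide. In gLuc it stood at 1.27, 1.13 and 1.22 CPM, so that only the libraries with the KMT2D guide were high. The change was 5.53-fold (log2 fold change 2.47, SE 0.20, adjusted p = 0.0039). MLC1 lies on chromosome 22 (50059391 to 50085902, minus strand, GRCh38).

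SDC2 encodes syndecan-2, a heparan sulphate proteoglycan of the cell surface (chromosome 8, 96493351 to 96611780, plus strand). Its level was 8.16, 5.29 and 8.2 CPM in gFBXW7, 27.7, 24.9 and 34.7 CPM with the KMT2D guide, and 3.71, 4.24 and 4.14 CPM in gLuc. The 3 groups did not overlap, with gLuc lowest and gFBXW7 + gKMT2D highest. The increase over gFBXW7 was 4.02-fold (log2 fold change 2.01, SE 0.20, adjusted p = 0.013).

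AFAP1L2 encodes an adaptor that binds SRC-family kinases and PI3 kinase (chromosome 10, 114294824 to 114404756, minus strand). It rose from 8.37, 9.88 and 9.53 CPM to 24.3, 27.3 and 20.7 CPM, while gLuc held 8.69, 8.65 and 9.7 CPM. The control and the gFBXW7 libraries thus overlapped, and those with the KMT2D guide were 2.61-fold above gFBXW7 (log2 fold change 1.38, SE 0.15, adjusted p = 0.015).

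LINC01420 (X chromosome, 56729241 to 56818380, plus strand), which the annotation lists as NBDY, a gene for a small protein linked to messenger RNA decapping, was rare in every library. It held 3, 4 and 6 reads in gFBXW7, 29, 44 and 32 reads with the KMT2D guide and 6, 3 and 6 reads in gLuc. In CPM the change was from 0.162, 0.238 and 0.306 to 1.63, 1.49 and 2.3 (log2 fold change 2.88, SE 0.35, adjusted p = 0.027). Outside the libraries with the KMT2D guide it lay below the filter on low counts, so it had to differ to be tested at all.

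**Figure D2:**
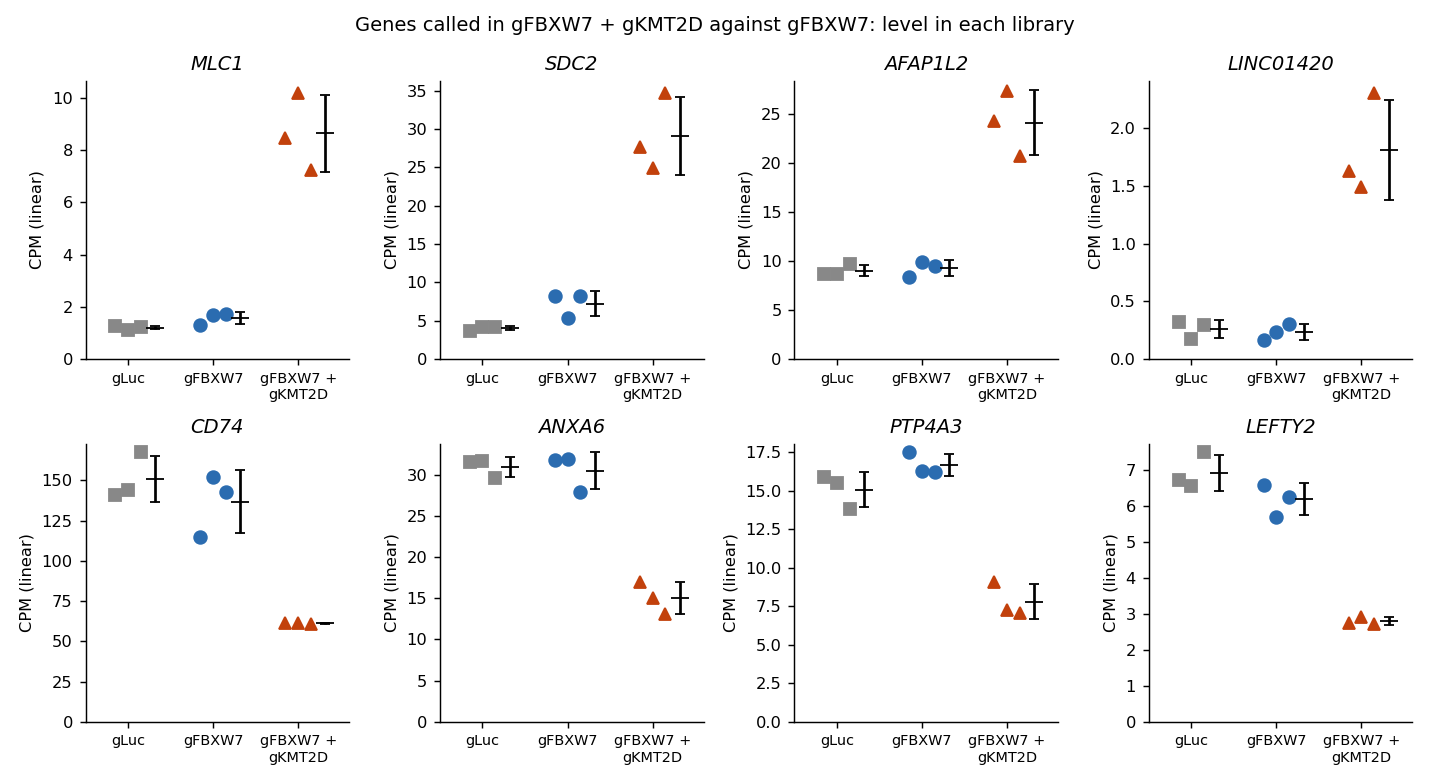
CPM on a linear axis in each of the 9 libraries for the 8 called genes, with gLuc as squares, gFBXW7 as circles, gFBXW7 + gKMT2D as triangles and the group mean with its SD (n = 3) as a bar. For MLC1, SDC2, AFAP1L2 and LINC01420 the triangles lie above all other points, and for CD74, ANXA6, PTP4A3 and LEFTY2 they lie below all of them.

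Per gene length, the 4 lower genes began above the 4 higher ones in gFBXW7: from 2.63 ± 0.0534 RPKM (reads scaled to gene length and library size, mean ± SD, n = 3) for PTP4A3 to 68.6 ± 11.1 RPKM for CD74, beside 1.95 ± 0.451 RPKM for SDC2, the highest of the other 4. CD74 is the invariant chain, which accompanies MHC class II molecules to the endosome, and also a surface receptor for the cytokine MIF (chromosome 5, 150401637 to 150412929, minus strand). It had 114.9, 152.4 and 143.1 CPM in gFBXW7 and 61.3, 61.3 and 60.9 CPM with the KMT2D guide. The control libraries, at 141.1, 143.9 and 167.5 CPM, overlapped those of gFBXW7. CD74 fell 2.24-fold (log2 fold change -1.16, SE 0.14, adjusted p = 0.027).

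ANXA6, an annexin that binds membranes in the presence of calcium (chromosome 5, 151100712 to 151157882, minus strand), went from 31.8, 31.9 and 27.9 CPM to 17.0, 15.1 and 13.1 CPM, against 31.6, 31.7 and 29.6 CPM in gLuc. It fell by 1.02 (SE 0.13, adjusted p = 0.039). Without library 3 of gFBXW7 + gKMT2D its log2 fold change was -0.93 (adjusted p = 0.054).

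PTP4A3, also called PRL-3, is a phosphatase of the PRL family that has been studied in myeloma and in metastasis (chromosome 8, 141391993 to 141432454, plus strand). It had 17.5, 16.3 and 16.2 CPM in gFBXW7, 9.1, 7.26 and 7.03 CPM with the KMT2D guide and 15.9, 15.5 and 13.8 CPM in gLuc. The control sat just under gFBXW7 and far above the libraries with the KMT2D guide. PTP4A3 fell by 1.10 (SE 0.14, adjusted p = 0.039), and its log2 fold change without library 3 of gFBXW7 + gKMT2D was -1.03 (adjusted p = 0.06).

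LEFTY2, a secreted inhibitor of NODAL signalling (chromosome 1, 225936598 to 225941489, minus strand), had 6.59, 5.71 and 6.27 CPM in gFBXW7, 2.75, 2.92 and 2.73 CPM with the KMT2D guide and 6.73, 6.56 and 7.5 CPM in gLuc. It fell by 1.14 (SE 0.15, adjusted p = 0.039), and its log2 fold change without library 3 of gFBXW7 + gKMT2D was -1.12 (adjusted p = 0.06). LEFTY1 is a near-identical neighbour that can share its reads. Summed, LEFTY1 and LEFTY2 gave 7.72, 6.48 and 7.13 CPM in gFBXW7 and 3.14, 3.29 and 2.8 CPM with the KMT2D guide, so the groups stayed apart for the pair as well.

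Set beside the control, the range of the gLuc libraries overlapped that of gFBXW7 for 5 of the 8 genes (AFAP1L2, LINC01420, CD74, ANXA6 and LEFTY2) and that of gFBXW7 + gKMT2D for 0. MLC1, SDC2 and PTP4A3 had gLuc outside both ranges. In the model with the surrogate variable, gLuc overlapped gFBXW7 for 74 of the 88 lower genes and gFBXW7 + gKMT2D for 47 of them. For the 37 higher genes the counts were 15 and 20.

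CD74 belongs to the MHC class II pathway, in which paired alpha and beta chains bind peptides in endosomes and show them to helper T cells. Transcription of these genes depends on the coactivator CIITA and on the RFX factors (RFX5, RFXAP and RFXANK) together with NF-Y, which bind the X box and the Y box shared by class II promoters. The Y box is a CCAAT sequence read on the opposite strand. The promoters of 3 members are shown, as RefSeq gives the 250 bases before the transcription start on GRCh38.p14, because they hold CCAAT on one strand or the other and belong to genes whose libraries did not overlap. HLA-DQA1, which also meets both conditions, is not shown. Further CCAAT matches on the gene's own strand in HLA-DRB1 (from base 56 of the stretch) and HLA-DQB1 (from base 187) are left in lower case. Capitals mark 1 match in each promoter. They are CCAAT on the gene's own strand in CD74 (chr5:150412911-150413160, minus strand) and CTGATTGG in HLA-DRB1 (chr6:32589849-32590098, minus strand) and HLA-DQB1 (chr6:32666658-32666907, minus strand).
CD74: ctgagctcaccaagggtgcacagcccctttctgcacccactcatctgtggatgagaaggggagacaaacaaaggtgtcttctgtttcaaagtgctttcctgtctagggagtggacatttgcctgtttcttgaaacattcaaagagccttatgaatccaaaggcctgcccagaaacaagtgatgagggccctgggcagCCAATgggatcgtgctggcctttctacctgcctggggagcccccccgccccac
HLA-DRB1: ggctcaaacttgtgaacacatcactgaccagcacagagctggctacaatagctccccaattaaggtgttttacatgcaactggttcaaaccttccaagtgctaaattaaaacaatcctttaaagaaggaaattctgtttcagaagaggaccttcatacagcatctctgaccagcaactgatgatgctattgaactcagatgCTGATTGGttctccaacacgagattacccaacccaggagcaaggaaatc
HLA-DQB1: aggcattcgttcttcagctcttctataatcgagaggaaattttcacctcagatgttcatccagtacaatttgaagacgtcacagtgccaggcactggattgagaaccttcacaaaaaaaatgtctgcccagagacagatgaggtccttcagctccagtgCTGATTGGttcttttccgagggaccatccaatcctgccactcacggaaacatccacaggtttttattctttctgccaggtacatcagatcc
The capitals lie 53 to 49 bases before the start in CD74, 49 to 42 in HLA-DRB1 and 91 to 84 in HLA-DQB1. CTGATTGG, searched on both strands over 300 bases (250 before and 50 after the start), was in a promoter of 4 of the 9 class II list members with an entry (HLA-DRB1, HLA-DRB5, HLA-DQB1 and RFX5) and in 3.97% of all 35116 promoters. The shorter ATTGG, which lies within it, or its complement CCAAT was in 34.6% of promoters. A match of letters is a description and does not show binding.

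Class II presentation genes were lower as a group. Of 23 members, 15 passed the filter on low counts, and 13 of these 15 were lower with the KMT2D guide (45.4% of all tested genes were). Their median log2 fold change was -0.75, beside 0.02 over all tested genes, and it stayed between -0.83 and -0.59 as single libraries were left out. CD74 alone passed the test. Another 7 had an unadjusted p under 0.05, all lower (8 of 15 in all, against 1.92% of tested genes), and the libraries of the groups did not overlap for 6 members, all lower (5.2% of tested genes). With 1 surrogate variable, 5 were called, all lower (0.664% of tested genes): CD74, HLA-DRA, HLA-DRB1, HLA-DQA1 and LGMN. The 8 members that did not pass the filter reached at most 0.574 CPM in the libraries compared. Class II chain genes share regulators and can exchange reads, and the list includes the called gene CD74. The 15 tested members are thus not separate observations.

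HLA-DRA, the invariant alpha chain of HLA-DR (chromosome 6, 32439842 to 32445046, plus strand), had 38.4, 53.0 and 46.7 CPM in gFBXW7, 24.8, 25.1 and 15.3 CPM with the KMT2D guide and 48.8, 49.0 and 63.5 CPM in gLuc. The log2 fold change, -1.08 (SE 0.22), did not pass (adjusted p = 0.33, and adjusted p = 4.8e-04 with 1 surrogate variable). HLA-DRB1, its main beta chain, had 11.7, 11.4 and 11.4 CPM against 4.94, 4.51 and 7.75 CPM, with gLuc at 12.7, 10.7 and 8.97 CPM (log2 fold change -1.02, adjusted p = 0.44). For both, every library with the KMT2D guide was below every other library. Without library 3 of gFBXW7 + gKMT2D, HLA-DRA had -0.88 (adjusted p = 0.29) and HLA-DRB1 had -1.28 (adjusted p = 0.057).

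The HLA-DQ chains had negative fold changes and did not pass the test. HLA-DQA1 went from 9.24, 8.57 and 8.56 CPM to 4.21, 3.33 and 7.46 CPM (log2 fold change -0.84, SE 0.27, unadjusted p = 0.011, and -1.23 without library 3), and HLA-DQB1 from 4.21, 4.16 and 3.31 CPM to 2.3, 2.1 and 2.58 CPM (-0.75, SE 0.20, unadjusted p = 0.0042). HLA-DRB3, HLA-DRB4, HLA-DRB5 and HLA-DPB1 were at 2.07 CPM or less in each library and had fold changes from -1.19 (HLA-DRB3) to -0.53 (HLA-DRB4) on the log2 scale. HLA genes differ between people and resemble each other, so reads can be given to the wrong member. Summed over the 15 class II chain genes of the list, where such exchange cancels, the level was 67.7, 81.0 and 75.4 CPM in gFBXW7, 38.1, 37.0 and 36.9 CPM with the KMT2D guide and 81.6, 74.7 and 89.6 CPM in gLuc. The sum in the 3 libraries with the KMT2D guide was thus close to uniform and below all others. Its members were not uniform: library 3 with the guide had less HLA-DRA and more HLA-DQA1 than the other libraries with it. The 4 DRB genes alone summed to 14.9, 14.5 and 15.6 CPM in gFBXW7 and 6.23, 6.11 and 10.8 CPM with the KMT2D guide. In gLuc they summed to 16.8, 14.2 and 12.3 CPM.

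None of the regulators of the pathway passed the test. CIITA had 9.94, 11.4 and 12.6 CPM in gFBXW7, 7.47, 9.74 and 7.54 CPM with the KMT2D guide and 11.6, 11.8 and 17.2 CPM in gLuc, so its libraries did not overlap (log2 fold change -0.45, SE 0.20, unadjusted p = 0.049, adjusted p = 1.0). RFX5 (-0.22, SE 0.15), RFXANK (-0.07, SE 0.29) and RFXAP (0.27, SE 0.15) had overlapping groups. Of the endosomal proteases, LGMN, which trims antigens and the invariant chain, had a log2 fold change of -0.51 (SE 0.23), and CTSS one of 0.12 (SE 0.29) at about 1 CPM. MHC class I presentation, with its own list, stood at a median of 0.01 over 13 tested members, of which 0 had an unadjusted p under 0.05. The difference between the lists was not tested.

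**Figure D3:**
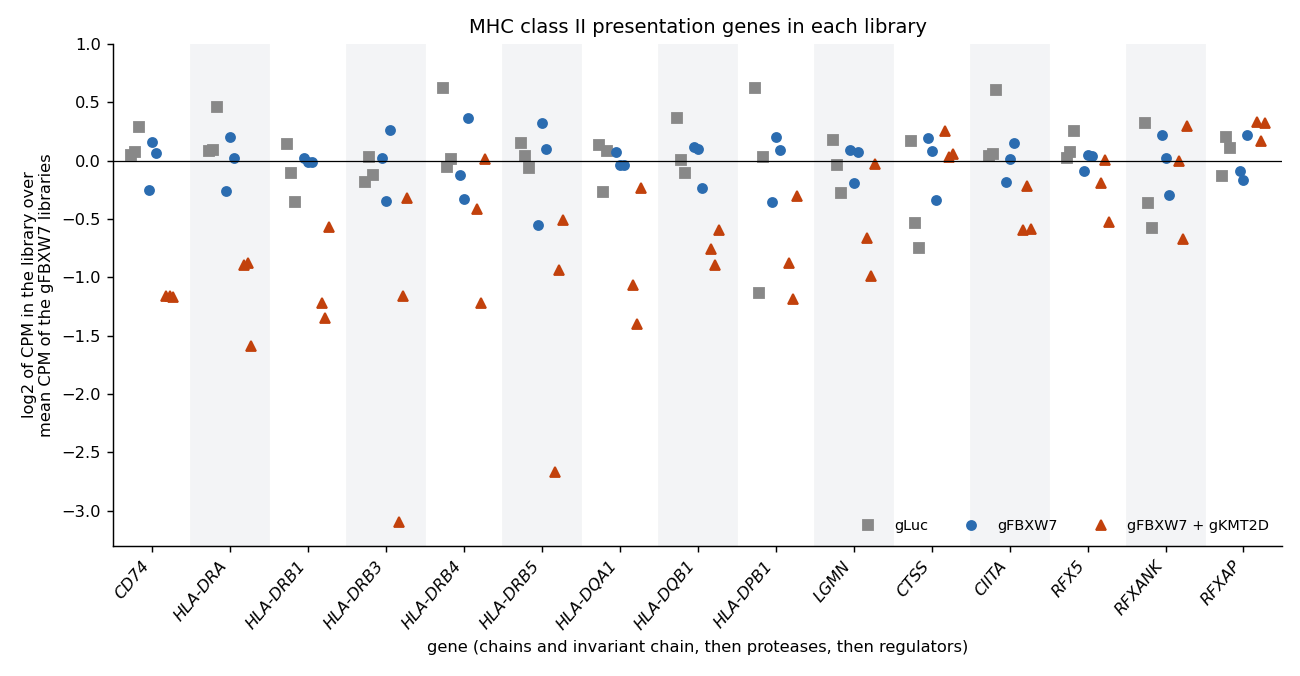
Log2 of the CPM in each library over the mean CPM of the gFBXW7 libraries (vertical axis) for the 15 tested members of the MHC class II list, with gLuc as squares, gFBXW7 as circles and gFBXW7 + gKMT2D as triangles. Triangles lie below all circles for CD74, HLA-DRA, HLA-DRB1, HLA-DQA1, HLA-DQB1 and CIITA, the 6 members without overlap, and lie on both sides of 0 for RFXANK and RFX5.

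In the families of the other called genes, no further member passed the test. Among the syndecans, SDC2 rose while SDC1, the CD138 antigen of plasma cells, was at 352.0, 374.2 and 376.0 CPM in gFBXW7 and 306.2, 292.3 and 238.8 CPM with the KMT2D guide (log2 fold change -0.40, SE 0.14, unadjusted p = 0.017, adjusted p = 1.0). SDC3 had -0.21 (SE 0.20). Per gene length, SDC1 remained the most abundant syndecan, at 74.7 ± 17.0 RPKM (mean ± SD, n = 3) against 7.62 ± 0.357 for SDC2 with the KMT2D guide. None of the 19 tested genes for glypicans, serglycin and the synthesis and remodelling of heparan sulphate had an unadjusted p under 0.05 (median -0.02).

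All 8 tested annexins had negative fold changes, with a median of -0.22. ANXA6 alone passed the test and had the largest fold change. ANXA5 and ANXA2, at 131.4 ± 23.3 and 40.8 ± 4.68 RPKM with the KMT2D guide (SD, n = 3), had log2 fold changes of -0.23 (SE 0.13) and -0.22 (SE 0.15), with libraries that did not overlap, as was the case for 4 annexins in all, each lower (5.2% of tested genes). ANXA1 was rare and had -0.90 (SE 0.45, unadjusted p = 0.071).

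The other PRL phosphatases had fold changes near 0. PTP4A1 had a log2 fold change of 0.02 (SE 0.12) and PTP4A2 of -0.04 (SE 0.18), both with overlapping groups, and the magnesium transport partners CNNM2, CNNM3 and CNNM4 had 0.02, 0.17 and 0.27. Partners of MLC1 were measured as well: the chloride channel CLCN2 had 0.33 (SE 0.20), the sodium pump subunit ATP1B1 had 0.07 (SE 0.12), and the volume-regulated channel subunits LRRC8A to LRRC8D ran from -0.17 (LRRC8A) to 0.09 (LRRC8C). AFAP1L2 was the 1 tested member of its family. Of 18 tested SRC and PI3 kinase genes, CSK, the kinase that restrains the SRC family, was lower at an unadjusted p of 0.021 (log2 fold change -0.36). It was the only member with an unadjusted p under 0.05, beside 4.22% of all tested genes in either direction.

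In the NODAL and activin list, 3 of 12 tested members had an unadjusted p under 0.05, all lower (1.92% of tested genes), at a list median of -0.02. Besides LEFTY2 these were LEFTY1, at 1.13, 0.773 and 0.866 CPM against 0.393, 0.373 and 0.0718 CPM (log2 fold change -1.59, SE 0.46), and SMAD3, a transcription factor of the pathway, at 2.43, 2.44 and 2.95 CPM against 1.46, 2.17 and 1.08 CPM (-0.68, SE 0.26). Neither of these 2 passed the test, and without library 3 of gFBXW7 + gKMT2D the values were -1.26 and -0.49. LEFTY1 passed the filter on low counts only through the groups where it is high. Its p and its place in the count therefore give no support. The receptors ACVR1B (-0.06), ACVR2A (-0.01) and ACVR2B (0.17), and SMAD2 (0.02) and SMAD4 (0.03), lay near 0.

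Among tested genes within 1 Mb of each called gene, the median log2 fold change was between -0.06 and 0.15. CD74 and ANXA6, 687.8 kb apart on chromosome 5, are neighbours of each other, and the 13 tested neighbours of ANXA6 had a median of -0.06. Another gene of that stretch, SYNPO, named here as the largest change there after its value was seen, had -1.32, and TNIP1, an inhibitor of NF-kB signalling, had -0.42 (unadjusted p = 0.015). Beside SDC2, CPQ had the largest change at 0.72. Medians of whole chromosomes ran from -0.04 to 0.07.

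Transcripts of mitochondrial DNA had the highest median of the gene lists with 3 or more tested members. Its 13 protein-coding genes, core subunits of respiratory complexes I, III and IV and of ATP synthase, all had positive fold changes, with a median of 1.26 on the log2 scale, and 0 passed the test. All 13 had an unadjusted p under 0.05 (2.3% of tested genes were higher at that level), and 10 had libraries that did not overlap (4.35%). They are cut from shared precursors, so they are not 13 separate observations. With 1 surrogate variable, 12 were called, all higher (0.279% of tested genes were called higher in that model).

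Together they took 0.638%, 1.52% and 1.54% of counts in gFBXW7, 3.63%, 3.67% and 2.04% with the KMT2D guide and 1.64%, 3.02% and 3.33% in gLuc. The first 2 groups did not overlap (2.53-fold difference of means, with p = 0.1 in an exact two-sided permutation test, which cannot go lower with 3 libraries a group), and gLuc overlapped the group with the KMT2D guide. Library 1 of gFBXW7 held the lowest share of all 9. Leaving it out brought the median down to 0.99, and leaving out library 3 of gFBXW7 + gKMT2D took it to 1.45. By gene, the range of gLuc overlapped that of gFBXW7 + gKMT2D for 11 of the 13 and that of gFBXW7 for 5.

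COX2, here the mitochondrial gene for cytochrome c oxidase subunit 2, had 817.3, 1478 and 1490 CPM in gFBXW7, 3948, 2929 and 3328 CPM with the KMT2D guide and 1834, 2821 and 2695 CPM in gLuc (log2 fold change 1.43, SE 0.27, adjusted p = 0.30). ATP8 had 97.3, 211.7 and 176.4 CPM against 443.3, 289.8 and 850.3 CPM (1.71, SE 0.39, adjusted p = 0.60), and 1.19 without library 3 of gFBXW7 + gKMT2D. ND3 had the smallest fold change of the 13, 1.02 (SE 0.24), from 465.0, 496.2 and 489.9 CPM to 933.8, 640.3 and 1368 CPM, and 0.71 without that library. For ND4, ND4L and ND5 library 3 with the KMT2D guide fell back among the gFBXW7 libraries, with 1982 CPM of ND4 against 4490 and 5206 CPM in the other two. MTRNR2L8, a nuclear gene that resembles mitochondrial ribosomal RNA and can share its reads, had 40.5, 48.9 and 35.5 CPM against 86.9, 86.4 and 74.3 CPM (0.99, SE 0.18, adjusted p = 0.27).

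Nuclear genes of mitochondria had medians that were near 0 or turned with a single library. The 27 tested genes of mitochondrial DNA upkeep and transcription had a median of 0.01. Nuclear subunits of oxidative phosphorylation had 0.15 over 75 tested members, and this became -0.28 without library 3 of gFBXW7 + gKMT2D and 0.42 without library 2. The cytosolic ribosomal proteins behaved likewise, with a median of 0.25 over 77 tested members, -0.15 without library 3 and 0.52 without library 2, so that the direction of both lists turned with a single library.

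**Figure D4:**
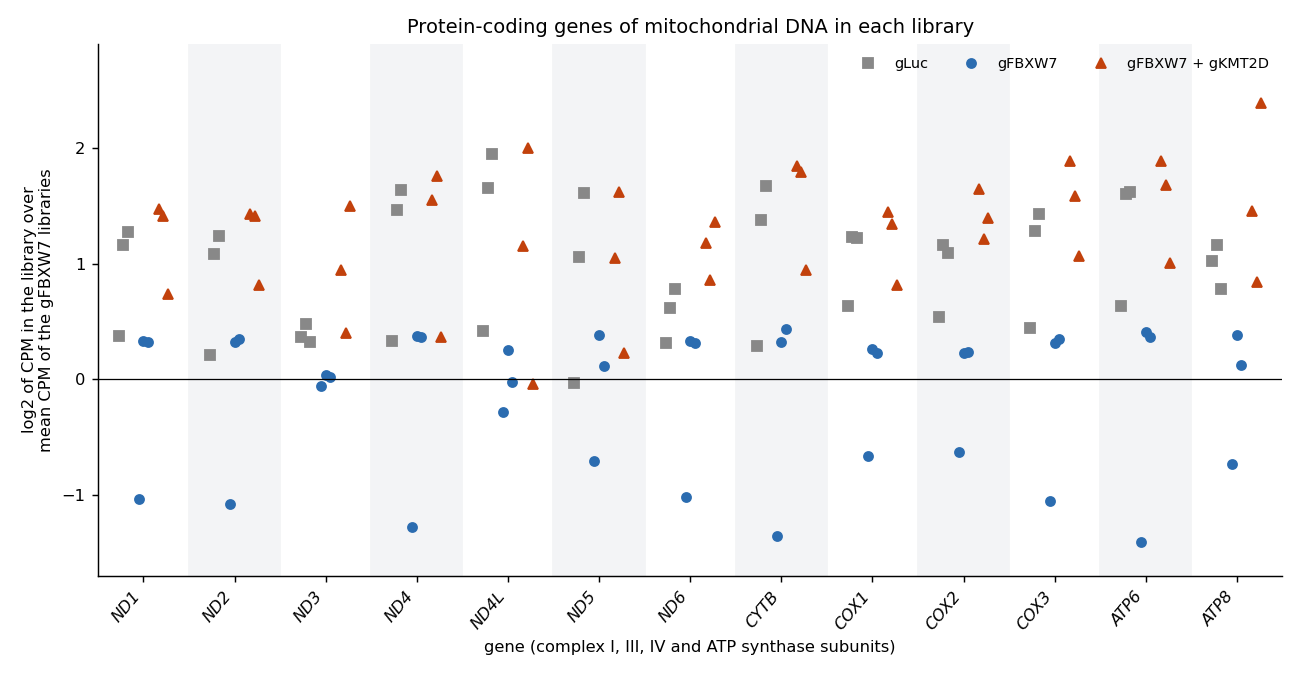
Log2 of the CPM in each library over the mean CPM of the gFBXW7 libraries (vertical axis) for the 13 protein-coding genes of mitochondrial DNA, with gLuc as squares, gFBXW7 as circles and gFBXW7 + gKMT2D as triangles. The lowest circle of most genes is library 1 of gFBXW7, and the squares spread over much of the range of the triangles.

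Below the threshold, 10 genes in each direction came next by p among those with no overlap between the groups. GPR132, a G protein-coupled receptor of lymphocytes, had 35.2, 38.0 and 38.2 CPM in gFBXW7 and 22.6, 20.1 and 24.1 CPM with the KMT2D guide (log2 fold change -0.74, SE 0.13, adjusted p = 0.20). VAV1, a signalling protein of blood cells, had 62.8, 61.5 and 61.2 CPM against 40.9, 36.6 and 39.8 CPM (-0.66, SE 0.12, adjusted p = 0.26). AQP3, a channel for water and glycerol, had 135.9, 137.7 and 148.6 CPM against 68.2, 63.9 and 92.4 CPM (-0.91, SE 0.17, adjusted p = 0.27), and passed the test without library 3 of gFBXW7 + gKMT2D (adjusted p = 0.048). In each of the 3 genes the gFBXW7 libraries were nearly level and overlapped those of gLuc.

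LGALS1, the sugar-binding protein galectin-1, had the largest fold change of these lower genes, from 56.9, 53.4 and 45.2 CPM to 23.6, 13.8 and 19.7 CPM (log2 fold change -1.45, SE 0.28, adjusted p = 0.30), with gLuc spread from 25.2 to 53.0 CPM. The adaptor LAT (-1.18, SE 0.23), the transcription factor ELF3 (-0.75, SE 0.13), the surface protease ADAM8 (-0.72, SE 0.13), the mitochondrial coenzyme A carrier SLC25A42 (-0.70, SE 0.14) and TRAF3IP3, a partner of TRAF3 (-0.65, SE 0.14), completed the 10, with HLA-DRA. The 10 on the higher side were MTRNR2L8, 5 mitochondrial genes (COX2, ATP8, ND3, COX1 and COX3), LINC00461 (0.64, SE 0.16), NPIPA1 (1.07, SE 0.27), KCTD17, an adaptor of CUL3 ubiquitin ligases (0.80, SE 0.20), and LOC102724993 (1.0, SE 0.26). NPIPA1 is one of a family of near-identical copies, so its reads are uncertain. All 10 in each direction were called with 1 surrogate variable (0.279% of tested genes were called higher and 0.664% lower in that model). These genes were chosen for a small p in the same libraries, so their calls in that model are no separate support. They were also chosen for not overlapping between the groups, so that feature is not a result.

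Cytokine signalling genes held several lower members. In the IL-6 and JAK-STAT list, 4 of 22 tested members had an unadjusted p under 0.05, all lower (1.92% of tested genes), at a list median of -0.09. IL21R, the receptor of interleukin-21, had 3.89, 3.21 and 3.46 CPM in gFBXW7 and 1.8, 1.93 and 2.15 CPM with the KMT2D guide (log2 fold change -0.85, SE 0.17, adjusted p = 0.37). SOCS3, a feedback inhibitor of the pathway, had 4.11, 3.99 and 3.52 CPM against 2.25, 2.31 and 1.29 CPM (-0.96, SE 0.23, adjusted p = 0.70), and -0.75 without library 3 of gFBXW7 + gKMT2D.

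IL6R, the receptor for a growth factor of myeloma cells, had 142.0, 137.0 and 132.1 CPM against 79.6, 80.7 and 127.7 CPM (log2 fold change -0.51, SE 0.18, unadjusted p = 0.019). Libraries 1 and 2 with the KMT2D guide were far below gFBXW7 and library 3 was just below, and without it the log2 fold change was -0.77 (adjusted p = 0.057). The kinases JAK1 (0.01, SE 0.30) and JAK2 (-0.10, SE 0.21), STAT3 (0.05, SE 0.12) and the co-receptor IL6ST (0.29, SE 0.30) had overlapping groups.

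Of the surface proteins used as targets in myeloma therapy, 10 of 11 tested had negative fold changes, with a median of -0.40 (-0.48 to -0.26 as single libraries were left out) and 5 at an unadjusted p under 0.05, all lower (1.92% of tested genes). Besides CD74 and SDC1 these were GPRC5D, LY9 and SEMA4A. GPRC5D had 69.1, 83.6 and 78.4 CPM in gFBXW7 and 52.7, 57.1 and 26.7 CPM with the KMT2D guide (log2 fold change -0.76, SE 0.24, unadjusted p = 0.011). GPRC5D did not pass the test, and its adjusted p was 0.0061 in the model with 1 surrogate variable. Library 3 was the lowest, and without it the value was -0.48. LY9 had 2.75, 2.92 and 2.6 CPM against 1.52, 1.63 and 0.789 CPM (-1.02, SE 0.26, unadjusted p = 0.003), and -0.79 without library 3 of gFBXW7 + gKMT2D.

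Other members of this list, named with values known, stood near 0 or varied within the group. TNFRSF17, which encodes BCMA, had 538.8, 387.1 and 392.2 CPM against 376.2, 247.3 and 633.5 CPM (log2 fold change -0.07, SE 0.34). CD38 (-0.05, SE 0.14), SLAMF7 (-0.03, SE 0.11) and CD46 (0.07, SE 0.13) had overlapping groups.

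Plasma cell identity genes had a median of -0.03 over 26 tested members and 2 at an unadjusted p under 0.05, GPRC5D and SDC1, both lower (1.92% of tested genes). IRF4 had a log2 fold change of -0.02 (SE 0.26), XBP1 of -0.16 (SE 0.19), JCHAIN of -0.03 (SE 0.23) and PRDM1 of 0.26 (SE 0.14). In the mature B cell list (median -0.12, 10 tested) SPIB, an ETS transcription factor of B cells, had the smallest p (log2 fold change -1.25, unadjusted p = 5.6e-05). SPIB did not pass the test, and its adjusted p was 0.0024 in the model with 1 surrogate variable. BLNK, an adaptor of the B cell receptor, had -0.43 (unadjusted p = 0.046).

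Genes linked to KMT2D in B cell lymphoma were measured as a list of 26, of which 25 were tested. Its median was -0.02, with 11 higher and 14 lower. SOCS3, which was lower, was the 1 member at an unadjusted p under 0.05 (4.22% of tested genes in either direction). TNFAIP3, an inhibitor of NF-kB, had 187.3, 193.8 and 199.3 CPM in gFBXW7 and 198.5, 255.2 and 137.1 CPM with the KMT2D guide (log2 fold change 0.03, SE 0.21). SGK1 (-0.02, SE 0.17), TRAF3 (-0.06, SE 0.17), TNFRSF14 (-0.08, SE 0.20) and IKZF3 (-0.02, SE 0.17) were close to 0 as well. KLF2 had -0.35 (SE 0.21), with overlapping groups.

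Partners of the targeted proteins had no member past the threshold. In the list of KMT2 methyltransferases and their complexes 0 of 21 had an unadjusted p under 0.05 (median 0.07). The paralog KMT2C had a log2 fold change of 0.18 (SE 0.24), KDM6A of 0.09 (SE 0.22), PAXIP1 of 0.07 (SE 0.17) and NCOA6 of 0.12 (SE 0.29). Among 15 SCF ligase genes FBXW4 alone had an unadjusted p under 0.05 (-0.34, SE 0.14, unadjusted p = 0.039), beside 4.22% of all tested genes in either direction. Of 31 tested genes for FBXW7 substrates, whose control by FBXW7 acts on the protein, MYC had 0.31 (unadjusted p = 0.041), and the list median was 0.05. MYC was the only member at that level, beside 4.22% of all tested genes in either direction.

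Other lists had small medians. Genes of protein folding and secretion in the endoplasmic reticulum were lower in 26 of 34 cases (45.4% of all tested genes were), with a median of -0.12. DNAJB11 (log2 fold change -0.24), PDIA6 (-0.39) and PDIA4 (-0.23) led it by p, and 0 members had an unadjusted p under 0.05. The groups did not overlap for 5 of the 34, all lower and these among them (5.2% of tested genes). Cholesterol synthesis was lower in 18 of 24 (median -0.15), led by FDPS (-0.35) and HMGCS1 (-0.28), again with 0 at that level. Interferon response genes were lower in 18 of 23 (median -0.13), with OAS1 (-1.21, unadjusted p = 0.0022) and IFITM1 (-0.59, unadjusted p = 0.044) at that level. Of all tested genes, 1.92% were lower at that level. Lists of G1/S and replication genes, G2 and M phase, Notch, TGF-beta and BMP, glycolysis and the TCA cycle had medians from -0.06 to 0.04. In these, BMP2 had a log2 fold change of 1.2 (unadjusted p = 0.005) and its inhibitor SMAD7 one of -0.35 (unadjusted p = 0.031).

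**Figure D5:**
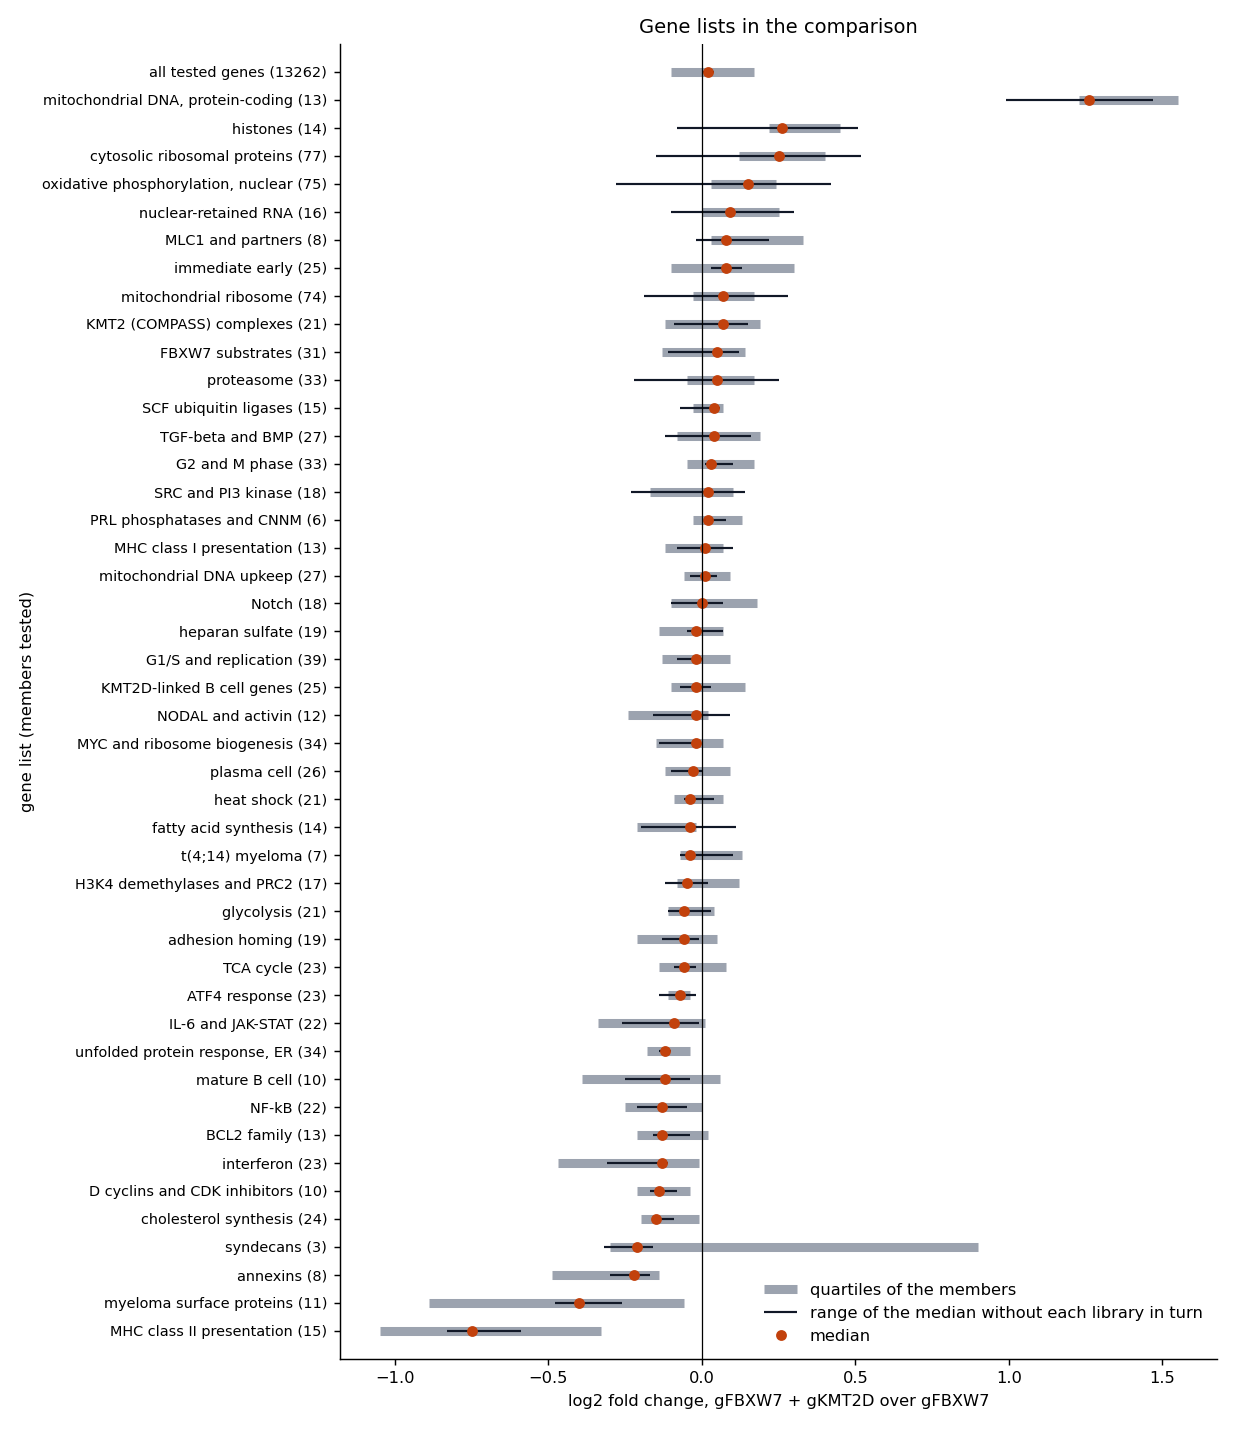
Median log2 fold change of gFBXW7 + gKMT2D over gFBXW7 (horizontal axis) in each gene list with 3 or more tested members, as circles, with the span between the quartiles of the members as grey bars and the range of the median as each library is left out in turn as thin lines. The mitochondrial DNA list at 1.26 and the MHC class II list at -0.75 lie at the ends, and the thin lines of the ribosomal protein and nuclear oxidative phosphorylation lists cross 0.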

How the data were processed

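Messenger RNA of 9 OPM-1 libraries was selected by its poly(A) tail and sequenced strand-specifically by the dUTP method, per the labels' protocols. STAR, featureCounts, Trimmomatic and DESeq2 are the tools, and GRCh38 the build, that the authors used per the submitters' processing notes, whose versions are not given in the sources used here. The deposited table holds whole-number read counts that the authors had not normalised, and the deposited RPKM values, which per the file headers and by recomputation are counts scaled to gene length and to the library total (largest relative difference 8.5e-07). A row with no name, equal to the sum of the others, was left out, and 28 rows named by a number were kept but not named.

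The counts of all 9 libraries were fitted in R 4.3.3 with the quasi-likelihood test of edgeR 4.0.16 (filterByExpr, 13262 genes, TMM scaling, group as the only term), and p-values were adjusted by Benjamini-Hochberg over the 13262 genes. A called gene has an adjusted p under 0.05. CPM values are scaled by TMM, and shares of counts are of the raw totals. Total counts were 16337492 to 27076242 per library, and genes under the filter were not tested. Alternatives were other scalings (DESeq2 size factors, upper quartile, TMM without immunoglobulin and mitochondrial genes), other filters, the DESeq2 1.42.0 Wald test, limma-voom and limma on log2 of RPKM plus 1 (limma 3.58.1), the 6 compared libraries alone, a replicate block, 1 surrogate variable (sva 3.50.0) and each library left out. The model with the surrogate variable and a library left out, or with 6 libraries, was added after seeing the data.

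Genes were named by rule: both targets, each called gene, the 10 genes next by p in each direction that carry a symbol, reach 2 in mean log2 CPM (prior count 2) and do not overlap between the groups, up to 3 members by p from each of 47 gene lists, and any member of the short family lists. Members named beyond these for their background role, with values near 0 included, and SYNPO and CPQ were chosen with values known. The comparison and the lists were chosen with earlier results of these data known. Lists are described by counts and medians only. The pipeline was tested on simulated data. Pairs of libraries of 1 group differed by more than counting error, so none repeats another. Coordinates are 1-based from GENCODE v29 on GRCh38 and were matched for 89.9% of tested genes, and promoters are from RefSeq on GRCh38.p14. Python 3.11.15 served for tables (pandas 2.3.3), permutation tests (scipy 1.17.1) and figures (matplotlib 3.10.9).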

Additional observations from a re-analysis of the deposited data

How the results depend on the processing

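The number of genes called, 8 as reported, was 8 with DESeq2 size factors, with scaling that left out immunoglobulin and mitochondrial genes and with limma-voom, and 7 among genes with 50 reads or more on average, where LINC01420 was not tested. It was 5 with upper quartile scaling, 33 with no filter, 31 with the DESeq2 Wald test, 3 with limma on log2 of RPKM plus 1, 0 with the 6 compared libraries alone (edgeR) and 125 with 1 surrogate variable. Leaving out each library in turn gave 0 to 7 genes: 0 without any 1 of the 3 gFBXW7 libraries, 1 without gLuc 2 or gFBXW7 + gKMT2D 1, 3 without gLuc 1 or gLuc 3 and 4 without gFBXW7 + gKMT2D 2. With 1 surrogate variable the count was 306, 59 and 152 without gLuc 1, 2 and 3, 48, 34 and 54 without gFBXW7 1, 2 and 3, 462, 46 and 157 without gFBXW7 + gKMT2D 1, 2 and 3, and 244 with the 6 compared libraries. The 8 called genes kept their sign in each of these settings in which they were tested, with 162 values on the same side of the threshold and 77 no longer past it. Each setting with 1 surrogate variable kept all 8, and those with fewer libraries were added after seeing the data. All of the 77 came from settings without the surrogate variable, so the pooled count overstates how well the calls held there. With the replicate number as a block the count was 2. Samples with the same number did not deviate together (correlations of -0.129, 0.228 and -0.251), so the numbers were not treated as pairs. Of the list medians under the alternatives, 1342 moved by less than the spread and 68 by more. The medians of the cytosolic ribosomal proteins and of the nuclear oxidative phosphorylation genes turned sign without gFBXW7 + gKMT2D 3. The cause was not tested. Depth limits what can be said of genes such as LINC01420, LEFTY1 and HLA-DRB5, with few reads per library, and of genes under the filter, which were not tested.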
